A study of Mus musculus with 12 samples.

Results

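The NF-κB factors and inflammatory targets described here are 10 genes of the deposited count table of LK cells, taken by name from its 55291 genes: *Nfkb1*, *Nfkb2*, *Rel*, *Relb*, *Bcl3*, *Nfkbia*, *Tnfaip3*, *Tnf*, *Il1b*, and *Cxcl2*. They were chosen for an inflammatory program linked to KDM6B, a histone demethylase that removes methyl groups from lysine 27 of histone H3. Their measured values were not part of the rule, but earlier results of these data were known when they were chosen. All 10 were expressed in all 12 libraries and passed the filter on low counts that 15825 genes passed. LK cells are bone marrow cells without surface markers of mature lineages that carry the stem cell factor receptor cKit. RNA was sequenced from bead-purified LK cells of individual C57BL/6 mice aged 12 months, 3 mice per genotype and 1 library per mouse. The genotypes were WT, Kdm6bΔ/+ (1 *Kdm6b* allele deleted), Asxl1Y588XTg (a transgene for truncated ASXL1), and Asxl1Y588XTg Kdm6bΔ/+ (both). *Kdm6b* was deleted by Cre from the *Mx1Cre* transgene after dosing with pI:pC, an RNA mimic of viral infection that itself triggers interferon and NF-κB signaling. Whether the WT and Asxl1Y588XTg mice of these libraries carried *Mx1Cre* or received pI:pC, and which promoter drives the transgene, is not given in the sources used here.

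NF-κB factors are dimers of related DNA-binding proteins that wait in the cytoplasm, bound by inhibitors of the IκB family. Receptors for TNF, IL-1, and microbial products activate the IKK kinases, which mark IκB for destruction and free the dimers to enter the nucleus. There they induce cytokines and chemokines and also their own inhibitors, so that the response limits itself. In bone marrow the pathway acts in the emergency production of myeloid cells and in the response of stem and progenitor cells to inflammation. Much of its control is on protein location and stability, which RNA counts do not measure.

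The DNA letters that NF-κB dimers prefer, the κB consensus, were searched for on both strands in the 250 bases before the RefSeq start of each gene (build GRCm38.p6). Promoters were at hand for 8 members, all but *Nfkb1* and *Relb*. A match was present for 5 of these 8, *Nfkb2*, *Rel*, *Nfkbia*, *Tnfaip3*, and *Cxcl2*, and for none of *Bcl3*, *Tnf*, and *Il1b*. Of all 27025 genes searched the same way, 4.46% had a match. Stretches of 150 bases are shown for 4 members because *Nfkbia*, *Cxcl2*, and *Tnf* varied together between libraries and *Rel* did not, as described later, and these stretches lie outside the annotated transcripts. They are written 5′ to 3′ on the strand of the gene, with the κB match in capitals.
*Nfkbia*, chr12:55492648-55492797, minus strand: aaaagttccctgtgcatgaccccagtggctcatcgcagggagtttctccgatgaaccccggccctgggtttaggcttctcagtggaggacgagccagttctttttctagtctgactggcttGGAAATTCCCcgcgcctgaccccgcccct
*Cxcl2*, chr5:90903721-90903870, plus strand: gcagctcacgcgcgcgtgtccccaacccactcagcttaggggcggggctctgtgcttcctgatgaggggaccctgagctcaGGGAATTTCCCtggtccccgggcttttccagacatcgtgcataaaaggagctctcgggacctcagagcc
*Rel*, chr11:23770971-23771120, minus strand: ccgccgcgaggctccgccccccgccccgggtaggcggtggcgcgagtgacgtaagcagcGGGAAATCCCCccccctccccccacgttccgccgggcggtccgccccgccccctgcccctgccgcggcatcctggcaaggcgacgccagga
*Tnf*, chr17:35202008-35202157, minus strand: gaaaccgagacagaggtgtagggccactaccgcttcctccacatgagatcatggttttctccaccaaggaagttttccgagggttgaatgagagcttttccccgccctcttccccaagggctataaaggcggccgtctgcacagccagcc
The capitals begin 29 bases before the RefSeq start in *Nfkbia*, 97 in *Cxcl2*, and 92 in *Rel*, and in the latter 2 they join overlapping matches of the 10-letter consensus. The letters say nothing about binding in these cells, and sites beyond 250 bases were not searched.

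Between 14451522 and 23482563 reads were counted per library, with a median of 17125384.5. *Kdm6b* was lower in every Kdm6bΔ/+ library (1346 to 1622 normalized counts) than in every WT library (1869 to 2372), and lower in every Asxl1Y588XTg Kdm6bΔ/+ library (1649 to 1909) than in every Asxl1Y588XTg library (2187 to 2303). The progenitor markers *Kit* (328 to 441 CPM, counts scaled to the library total) and *Cd34* (116 to 156 CPM) were present throughout, and all 12 of a list of neutrophil genes were also detected in all libraries. *S100a8*, *S100a9*, *Ltf*, *Ngp*, *Camp*, and 7 others summed to 56276 to 83660 CPM in WT, 64893 to 71149 in Kdm6bΔ/+, 54815 to 64319 in Asxl1Y588XTg, and 58777 to 72115 in Asxl1Y588XTg Kdm6bΔ/+. The 12 monocyte and macrophage genes summed to between 1211 and 1503 CPM, with none at 0. Their part in the members' levels was not tested. Y-linked transcripts were present in 0 of 3 WT, 2 of 3 Kdm6bΔ/+, 1 of 3 Asxl1Y588XTg, and 3 of 3 Asxl1Y588XTg Kdm6bΔ/+ libraries, so sex and genotype cannot be fully told apart.

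Per length of exon, the inhibitor *Nfkbia* was the most abundant member and *Relb* the least. The mean over 12 libraries in RPKM, reads scaled to exon length and to the library total, was 79.7 for *Nfkbia*, 27.9 for *Tnf*, 17.4 for *Nfkb1*, 13.4 for *Il1b*, 9.02 for *Cxcl2*, 7.84 for *Tnfaip3*, 7.62 for *Rel*, 7.30 for *Nfkb2*, 5.68 for *Bcl3*, and 1.43 for *Relb*. *Nfkbia* was above and *Relb* below every library of the other members, and *Tnf* (21.9 to 42.9 RPKM) was above every library of *Nfkb1* (15.7 to 18.8 RPKM). The length was that of all annotated exons of a gene, with overlaps joined: 12061 bases for *Nfkb1* and 1639 for *Tnf*. The order by RPKM depends on this length, and the lengths of the transcripts made in these cells were not measured. From *Nfkb1* down to *Bcl3*, neighbors in this order overlapped between libraries, so that part of the order is within their spread. Variation between mice followed another order: the highest library exceeded the lowest 5.27-fold for *Il1b*, 3.59-fold for *Cxcl2*, 3.43-fold for *Bcl3*, and 2.49-fold for *Tnfaip3*, against 1.20-fold for *Nfkb1* and 1.26-fold for *Rel*. Single libraries set some of these ranges: without Asxl1Y588XTg replicate 1 that of *Il1b* was 2.72-fold, and without Asxl1Y588XTg Kdm6bΔ/+ replicate 1 that of *Bcl3* was 1.92-fold. The coefficient of variation of *Il1b* was 80.3% in Asxl1Y588XTg and 25.3% to 37.9% in the other genotypes, and that of *Nfkb1* was 1.79% to 6.58% in the 4 genotypes. In bulk RNA, fewer cells of a type and less RNA per cell cannot be told apart. The values that follow are normalized counts, which compare libraries for 1 gene but not genes with each other.

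**Figure D1:**
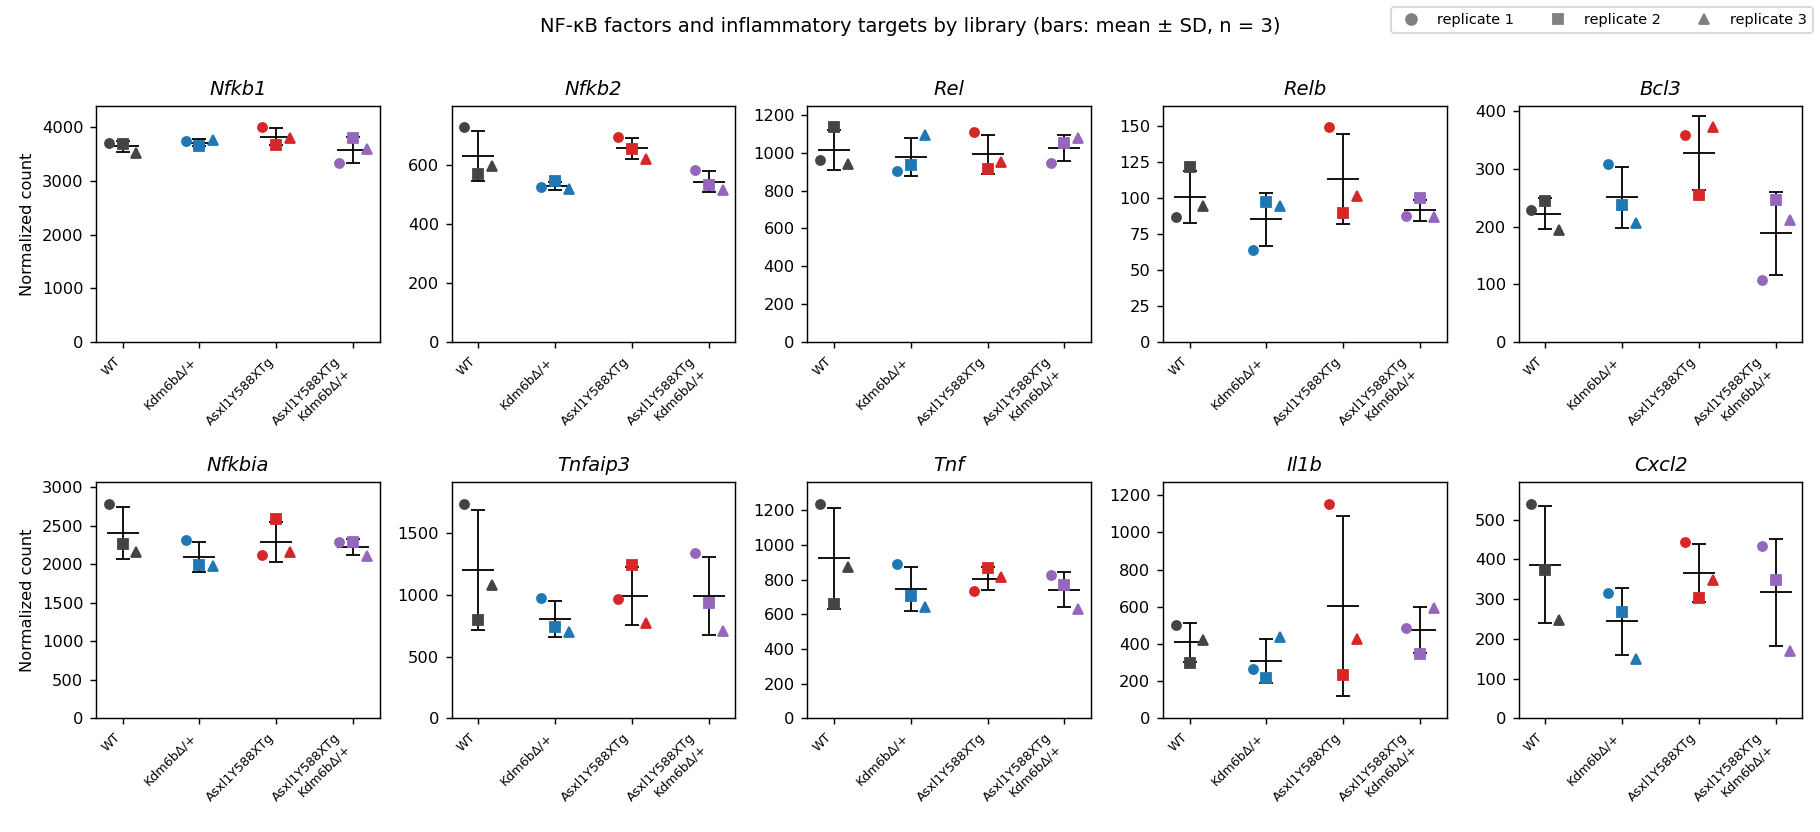
Normalized counts of the 10 genes in each library (vertical axes from 0, one scale per gene), with colors for the 4 genotypes, symbols for replicates, and bars for the mean ± SD of 3 mice. *Nfkb1* and *Rel* were nearly level across the libraries, *Nfkb2* was lower in the Kdm6bΔ/+ libraries than in WT, and *Il1b* had 1 Asxl1Y588XTg library at 1155.

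The DNA-binding subunits were described first. *Nfkb1* (chr3:135584655-135691547) encodes p105, the precursor of the p50 subunit, which pairs with RelA in the canonical dimer. It measured 3702, 3693, and 3522 in WT, 3733, 3639, and 3767 in Kdm6bΔ/+, 3993, 3669, and 3800 in Asxl1Y588XTg, and 3333, 3803, and 3586 in Asxl1Y588XTg Kdm6bΔ/+. All 4 genotypes overlapped. *Rel* (chr11:23736847-23770970) encodes c-Rel, a subunit with a transactivation domain that is prominent in lymphoid and myeloid cells. Its values were 961, 1133, and 942 in WT, 901, 937, and 1093 in Kdm6bΔ/+, 1107, 913, and 953 in Asxl1Y588XTg, and 948, 1052, and 1079 in Asxl1Y588XTg Kdm6bΔ/+, again with overlap of every genotype with every other. For both genes the comparisons bound the differences closely: over the 5 pairwise comparisons, the 95% confidence intervals of the log2 fold change lay between −0.24 and 0.23 for *Nfkb1* and between −0.30 and 0.27 for *Rel*.

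*Nfkb2* and *Relb* form the noncanonical dimer, which follows stabilization of the kinase NIK. *Nfkb2* (chr19:46304320-46312385) encodes p100, at once the precursor of p52 and an inhibitor of RelB. It measured 726, 567, and 596 in WT and 524, 543, and 518 in Kdm6bΔ/+, and 692, 654, and 620 in Asxl1Y588XTg and 581, 531, and 516 in Asxl1Y588XTg Kdm6bΔ/+. On each background the libraries with the *Kdm6b* deletion lay below all those without it. This held for 4.80% of all genes on the WT background and for 14.1% on the Asxl1Y588XTg background. The share of genes with both was not counted. *Relb* (chr7:19606217-19629438) was the lowest member, with 51 to 148 raw counts per library. Its values were 87, 121, and 94 in WT, 64, 97, and 94 in Kdm6bΔ/+, 149, 90, and 101 in Asxl1Y588XTg, and 88, 100, and 87 in Asxl1Y588XTg Kdm6bΔ/+. The 149 of Asxl1Y588XTg replicate 1 was the highest of the 12, and the genotypes overlapped.

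*Bcl3*, *Nfkbia*, and *Tnfaip3* encode proteins that modulate or restrain NF-κB. *Bcl3* (chr7:19808462-19822770) encodes a nuclear IκB-family protein that binds p50 and p52 dimers and can turn them into activators. It measured 230, 245, and 194 in WT, 309, 237, and 207 in Kdm6bΔ/+, 358, 255, and 372 in Asxl1Y588XTg, and 108, 246, and 211 in Asxl1Y588XTg Kdm6bΔ/+. All Asxl1Y588XTg libraries were above all WT and all Asxl1Y588XTg Kdm6bΔ/+ libraries, by a narrow gap (255 against 245 and 246). The former held for 10.5% and the latter for 14.1% of all genes. The 108 of Asxl1Y588XTg Kdm6bΔ/+ replicate 1 was far below every other library. *Nfkbia* (chr12:55489410-55492647) encodes IκBα, the inhibitor that NF-κB itself induces. Its values were 2790, 2272, and 2163 in WT, 2324, 1991, and 1985 in Kdm6bΔ/+, 2129, 2595, and 2165 in Asxl1Y588XTg, and 2296, 2288, and 2113 in Asxl1Y588XTg Kdm6bΔ/+, with overlap among genotypes. *Tnfaip3* (chr10:19000910-19015657) encodes A20, a ubiquitin-editing enzyme that ends signaling below the TNF and Toll-like receptors. It measured 1739, 793, and 1077 in WT, 971, 743, and 698 in Kdm6bΔ/+, 966, 1240, and 771 in Asxl1Y588XTg, and 1336, 935, and 705 in Asxl1Y588XTg Kdm6bΔ/+. All 4 genotypes overlapped, and the WT replicates alone ran from 793 to 1739.

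The secreted targets were *Tnf*, *Il1b*, and *Cxcl2*. *Tnf* (chr17:35199381-35202007), the cytokine that is both a target and an inducer of NF-κB, measured 1238, 658, and 871 in WT, 890, 704, and 644 in Kdm6bΔ/+, 734, 864, and 817 in Asxl1Y588XTg, and 828, 767, and 632 in Asxl1Y588XTg Kdm6bΔ/+. WT replicate 1 stood above the other 11 libraries. *Il1b* (chr2:129364570-129371139) encodes the IL-1β precursor, which inflammasomes cleave for release. Its values were 505, 299, and 424 in WT, 265, 219, and 440 in Kdm6bΔ/+, 1155, 233, and 427 in Asxl1Y588XTg, and 486, 349, and 595 in Asxl1Y588XTg Kdm6bΔ/+, so that the highest library and the second lowest were both Asxl1Y588XTg. *Cxcl2* (chr5:90903871-90905938), a chemokine that draws neutrophils through CXCR2, measured 540, 373, and 247 in WT, 314, 269, and 151 in Kdm6bΔ/+, 445, 303, and 347 in Asxl1Y588XTg, and 434, 347, and 170 in Asxl1Y588XTg Kdm6bΔ/+. All genotypes overlapped for the 3 genes. *Nfkb1*, *Nfkb2*, *Bcl3*, and *Il1b* overlap other annotated genes, *Il1b* its antisense transcript *Il1bos*. The partner of *Nfkb1* lies on the same strand, and those of the other genes on the opposite strand. The strand setting of the counting and its handling of reads in overlaps are not given. Reads of such partners may therefore be included, or reads of the members left out.

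The comparisons asked whether loss of 1 *Kdm6b* allele, the truncated ASXL1 transgene, or both altered the set. None of the 10 members was called in any of 8 comparisons, where a call needs an adjusted p-value under 0.05 (edgeR quasi-likelihood test, Benjamini-Hochberg over 15825 genes) and a fold change above 1.5. DESeq2 also called none. The share of all genes called in the same tests was 0.0948% for Kdm6bΔ/+ against WT, 1.61% for Asxl1Y588XTg against WT, 1.74% for Asxl1Y588XTg Kdm6bΔ/+ against Asxl1Y588XTg, 0.215% for Asxl1Y588XTg Kdm6bΔ/+ against WT, and 0.0948% for Asxl1Y588XTg Kdm6bΔ/+ against Kdm6bΔ/+. It was 0.348% for the deletion over both backgrounds, 1.92% for the transgene over both *Kdm6b* genotypes, and 0.0126% for the interaction. At these shares, no call among 10 genes does not set the members apart from other genes.

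**Figure D2:**
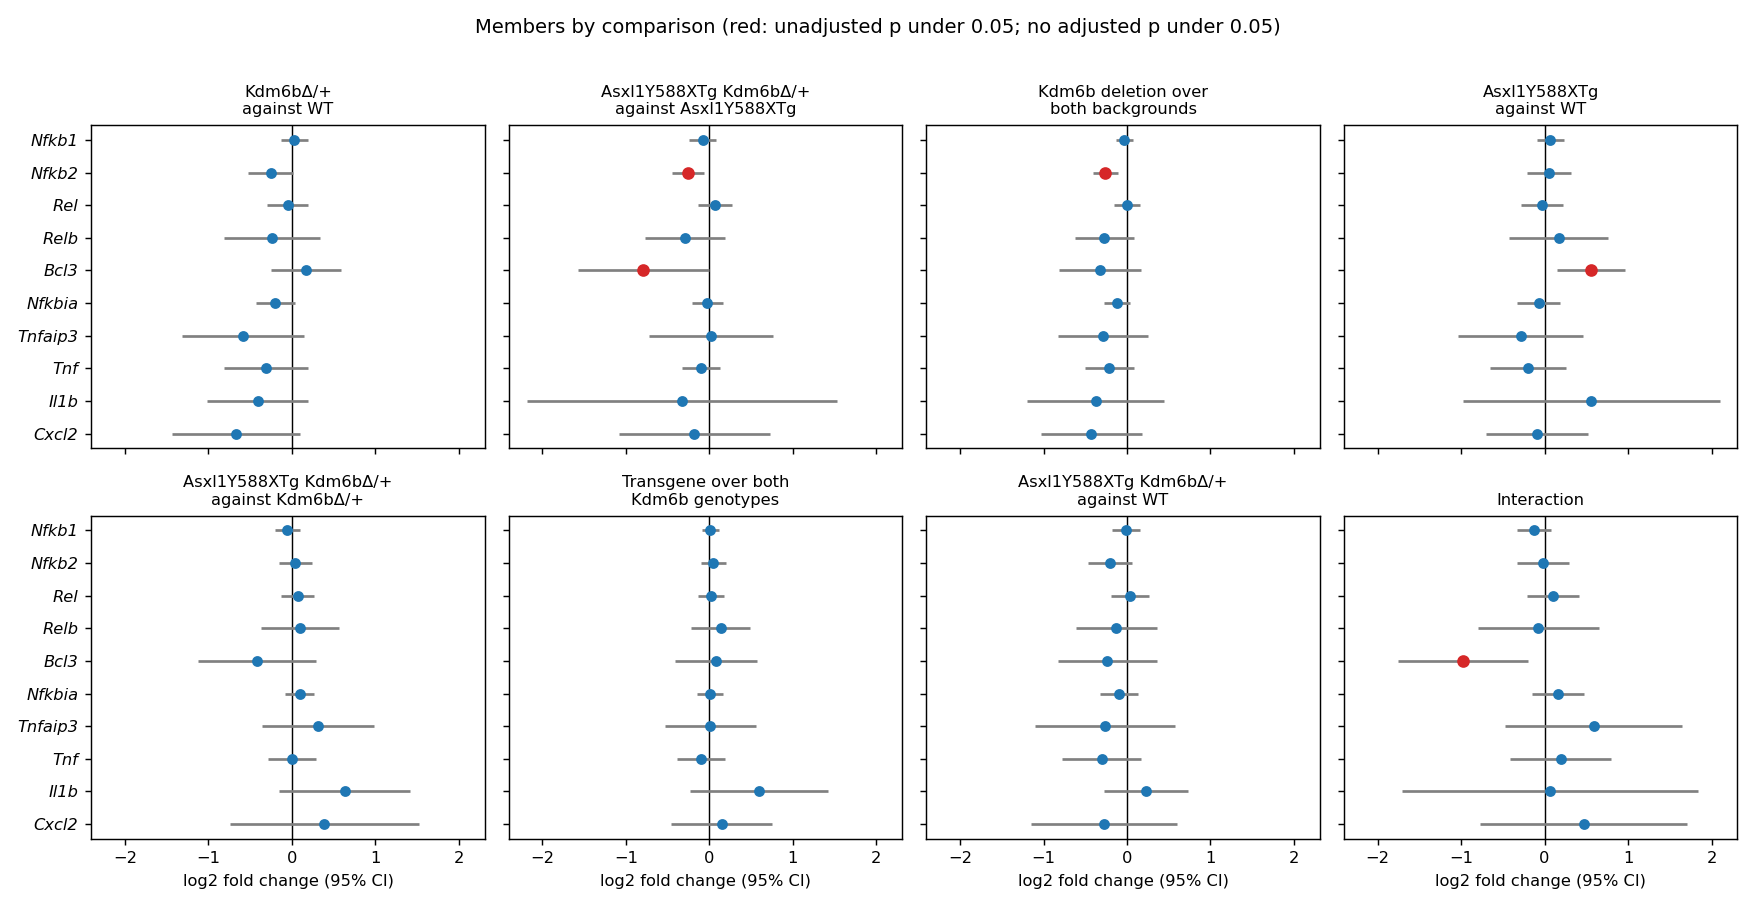
Log2 fold change of each gene (points) with its 95% confidence interval (lines) in the 8 comparisons, with red points where the unadjusted p-value was under 0.05. *Nfkb1* had the narrowest interval in each of the 8 comparisons, and the intervals of *Nfkb1* and *Rel* all crossed 0.

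On the WT background, 8 of 10 members had a log2 fold change below 0 in Kdm6bΔ/+ libraries, against 50.8% of all genes. The median was −0.24, against 0.00 for all genes. With a term for Y-linked transcripts, 6 were below 0 and the median was −0.13. The lowest were *Cxcl2* at −0.67 (SE 0.33) and *Tnfaip3* at −0.59 (SE 0.30), and without WT replicate 1 they were at −0.34 and −0.22. No member had an unadjusted p-value under 0.05, which 3.49% of all genes had, and the edgeR adjusted p-value of each member was 0.99989. *Nfkb2*, at −0.25 (SE 0.12), was the 1 member whose groups did not overlap, which held in this direction for 4.80% of genes. WT replicate 1 was the highest of all libraries for *Nfkb2*, *Nfkbia*, *Tnfaip3*, *Tnf*, and *Cxcl2*. Over the fits that leave out 1 library, the median ran from −0.28 to −0.11, the latter without WT replicate 1.

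On the Asxl1Y588XTg background, 8 of 10 members were below 0 (50.8% of all genes), with a median of −0.14 and with 2 members at an unadjusted p-value under 0.05 (15.4% of all genes). *Nfkb2* had a log2 fold change of −0.26 (SE 0.09, 95% confidence interval −0.44 to −0.07, edgeR adjusted p = 0.178), from a mean of 655 ± 36.1 (SD, n = 3) to 543 ± 34.3 (SD, n = 3). *Bcl3* had −0.79 (SE 0.32, interval −1.58 to −0.01, edgeR adjusted p = 0.320), from 328 ± 64.1 (SD, n = 3) to 189 ± 71.6 (SD, n = 3). In both genes the groups did not overlap, lower with the deletion, as for 14.1% of all genes. Without Asxl1Y588XTg Kdm6bΔ/+ replicate 1 the value of *Bcl3* was −0.50. The other 8 members lay between −0.33 for *Il1b* and 0.07 for *Rel*. Without Asxl1Y588XTg replicate 1 *Il1b* was at 0.55. Without Asxl1Y588XTg Kdm6bΔ/+ replicate 3, 5 of 10 members were below 0. The median of the members was −0.04 without Asxl1Y588XTg replicate 1, −0.04 without Asxl1Y588XTg Kdm6bΔ/+ replicate 3, and −0.26 without Asxl1Y588XTg Kdm6bΔ/+ replicate 1. With a term for Y-linked transcripts, 7 of 10 members were below 0 and the median was −0.12. In that fit *Bcl3* was lowest at −0.66 and *Il1b* highest at 0.12. The smallest edgeR adjusted p-value of a member was then 0.698, for *Bcl3*.

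Over both backgrounds, with 6 libraries on each side, 9 of 10 members were below 0, against 53.9% of all genes, and the median was −0.27, against −0.01. This fit shares its libraries with both comparisons above and is no separate evidence. *Nfkb2* was the 1 member with an unadjusted p-value under 0.05 (9.81% of all genes), at −0.26 (SE 0.07, interval −0.41 to −0.11, edgeR adjusted p = 0.153). Over the 12 fits without 1 library, its edgeR adjusted p ranged from 0.0592 to 0.389. The median of the members was −0.15 without WT replicate 1. *Rel* was at 0.00 (SE 0.07) and *Nfkb1* at −0.03 (SE 0.05). Without WT replicate 1 and Asxl1Y588XTg replicate 1, left out after the data were seen because they held the highest values of 8 members, 8 of 10 members were below 0 and the median was −0.10. With a term for Y-linked transcripts, 8 were below 0 with a median of −0.20. In that fit no member, *Nfkb2* included, had an edgeR adjusted p-value under 0.9998. *Kdm6b* itself was at −0.41 (SE 0.07, edgeR adjusted p = 0.0129), a fold change under 1.5.

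For Asxl1Y588XTg against WT, 5 of 10 members were below 0 (52.2% of all genes), with a median of 0.01, and 1 had an unadjusted p-value under 0.05 (9.35% of all genes). This was *Bcl3*, at 0.56 (SE 0.18, interval 0.15 to 0.97, edgeR adjusted p = 0.264), from 223 ± 26.3 to 328 ± 64.1 (SD, n = 3 each). Its groups did not overlap, higher with the transgene, as for 10.5% of all genes. *Il1b* was also at 0.56 but with an SE of 0.61 and an interval from −0.97 to 2.10. Leaving out single libraries moved the median between −0.10 and 0.08 and the number of members below 0 between 1 (without WT replicate 1) and 7 (without Asxl1Y588XTg replicate 1). Without Asxl1Y588XTg replicate 1 the *Il1b* log2 fold change was −0.31, and without WT replicate 1 the fold change of *Tnfaip3* went from −0.28 to 0.08.

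Within mice with the deletion, Asxl1Y588XTg Kdm6bΔ/+ against Kdm6bΔ/+, 3 of 10 members were below 0 (49.7% of all genes) and none had an unadjusted p-value under 0.05, against 12.2% of all genes. *Il1b* was highest at 0.63 (SE 0.32) and *Bcl3* lowest at −0.42 (SE 0.30). Over both *Kdm6b* genotypes the transgene gave a median of 0.03, with 1 of 10 members, *Tnf*, below 0 (51.5% of all genes), and no member had an unadjusted p-value under 0.05 (13.7% of all genes). *Il1b* was highest at 0.59 (SE 0.37, interval −0.23 to 1.42), and at 0.22 without Asxl1Y588XTg replicate 1. Leaving out single libraries put between 0 (without WT replicate 1) and 4 members below 0, the 4 without WT replicate 3, Asxl1Y588XTg replicate 1, or Asxl1Y588XTg Kdm6bΔ/+ replicate 1. For Asxl1Y588XTg Kdm6bΔ/+ against WT, 8 of 10 members were below 0 (50.1% of all genes), from −0.30 for *Tnf* to 0.23 for *Il1b*, and none had an unadjusted p-value under 0.05 (6.79% of all genes). Without WT replicate 1, 6 of 10 were below 0. The median went from −0.16 to −0.02 with the term for Y-linked transcripts. These were present in 3 of 3 Asxl1Y588XTg Kdm6bΔ/+ and 0 of 3 WT libraries, so sex and genotype coincide here. The term could be estimated only from libraries of the other genotypes.

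The interaction tested whether the effect of the deletion differed between the backgrounds. In this fit 4 of 10 members were below 0, against 52.8% of all genes. *Bcl3* was the 1 member with an unadjusted p-value under 0.05 (6.87% of all genes), at −0.98 (SE 0.36, interval −1.75 to −0.20, edgeR adjusted p = 0.609): with the deletion its log2 fold change was 0.17 on the WT background and −0.79 on the Asxl1Y588XTg background. Leaving out single libraries moved the interaction between −1.19 and −0.69. For *Il1b* the interval, from −1.71 to 1.84, was too wide to show a difference at this number of mice.

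The members varied between mice of the same genotype, and not all together. The scaled mean of the 10 members was highest in Asxl1Y588XTg replicate 1 (1.03 SD) and WT replicate 1 (0.95 SD) and lowest in Kdm6bΔ/+ replicate 2 (−0.61 SD). A group of 5 genes, *Nfkb2*, *Nfkbia*, *Tnfaip3*, *Tnf*, and *Cxcl2*, picked after their values were seen, varied together. Over 12 libraries the Pearson r of its 10 pairs lay between 0.60 and 0.88, the highest for *Tnfaip3* with *Tnf* (0.88), *Nfkbia* with *Tnfaip3* (0.85), and *Nfkbia* with *Tnf* (0.81). Between deviations from the genotype means it lay between 0.51 and 0.88, and without WT replicate 1 between 0.34 and 0.77. Spearman's rho over 12 libraries was between 0.41 and 0.86. *Nfkbia*, *Tnfaip3*, and *Tnf* are rapidly induced NF-κB targets with short-lived transcripts. *Rel* did not follow them, with r = −0.64 against *Tnf*. *Nfkb1* went with *Bcl3* (r = 0.88) and *Rel* with *Relb* (r = 0.66), while *Il1b* had no r above 0.50 with any other member. These are descriptions over libraries that share genotypes and library scaling, and carry no test.

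**Figure D3:**
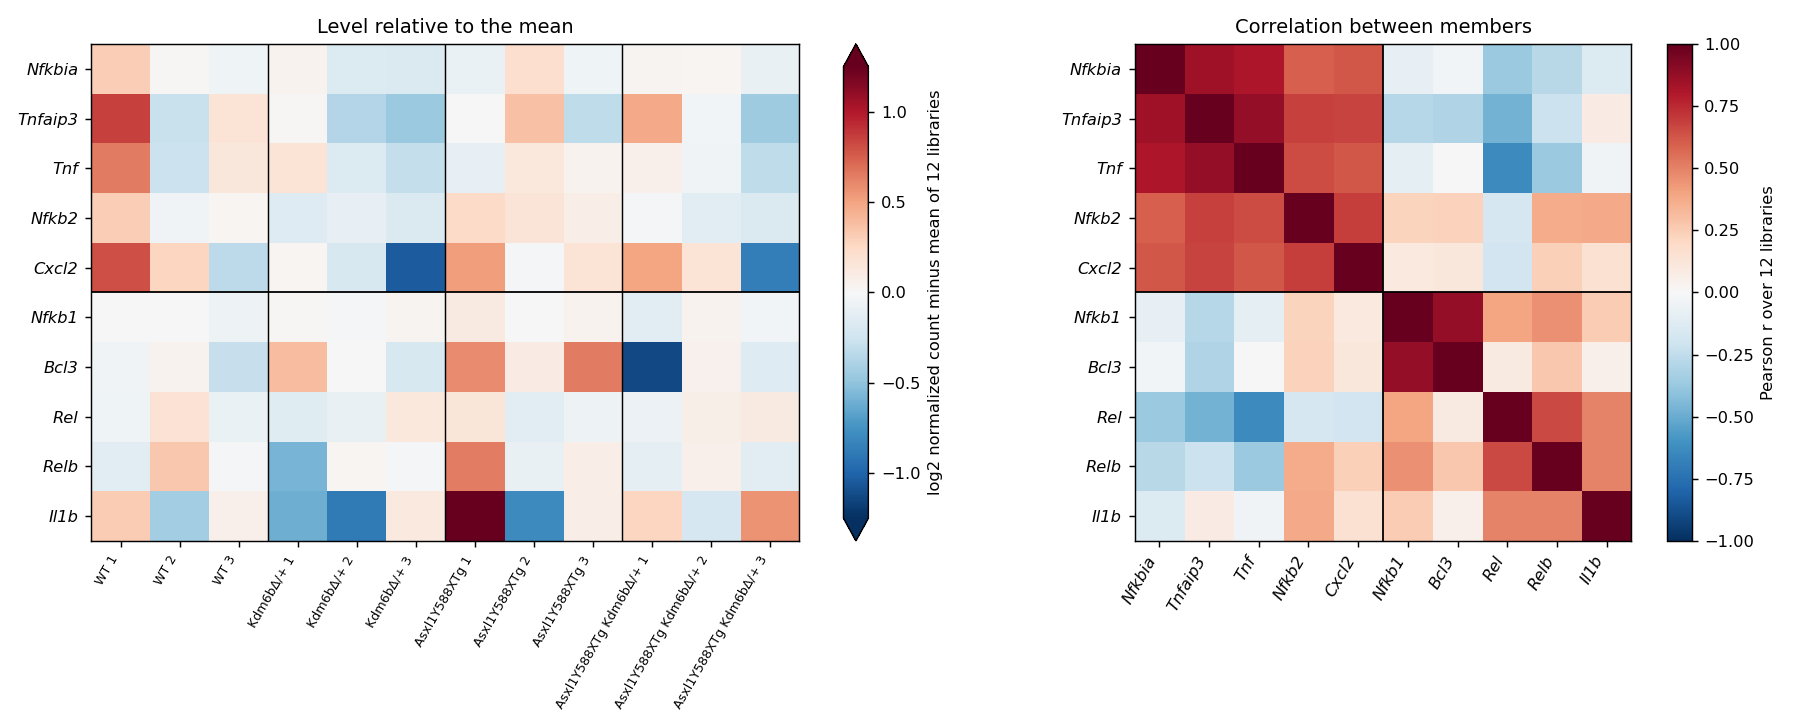
Left, log2 normalized count of each gene in each library minus its mean over 12 libraries. Right, Pearson r between genes over 12 libraries. Both color scales run from blue (low) to red (high). *Nfkbia*, *Tnfaip3*, *Tnf*, *Nfkb2*, and *Cxcl2* form a block with r of at least 0.60 and are highest in WT replicate 1, and *Bcl3* is lowest in Asxl1Y588XTg Kdm6bΔ/+ replicate 1.

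Other cell markers and immediate-early genes, the first genes cells transcribe on stimulation, were set beside these patterns. The summed level of 16 immediate-early genes ranged from 1736 to 3231 CPM in WT, 1391 to 2116 in Kdm6bΔ/+, 2489 to 4291 in Asxl1Y588XTg, and 1580 to 2718 in Asxl1Y588XTg Kdm6bΔ/+. Its r over 12 libraries was 0.84 with *Nfkb2*, 0.78 with *Tnfaip3*, 0.71 with *Nfkbia*, 0.68 with *Tnf*, and 0.66 with *Cxcl2*, but 0.05 with *Nfkb1* and −0.43 with *Rel*. The summed level of 8 dendritic cell markers was 877 CPM in Asxl1Y588XTg replicate 1, against 298 to 537 in the other 11 libraries. It was 298 to 346 CPM in Kdm6bΔ/+ and 415 to 446 in WT, without overlap. In that comparison 8 of 8 of these markers were below 0 (50.8% of all genes), with 1 called (0.0948% of all genes). So were 9 of 9 erythroid (1 called), 6 of 6 mast cell and basophil, and 11 of 12 monocyte genes. Below 0 were also 8 of 9 B cell and 7 of 10 T and NK cell genes. For megakaryocytes, progenitors, and neutrophils the counts were 5 of 7, 6 of 10, and 5 of 12. The 8 megakaryocyte genes summed to 286 to 744 CPM in Asxl1Y588XTg, against 96 to 167 in WT. Of 7 tested, 3 were called for the transgene over both *Kdm6b* genotypes (1.92% of all genes). Over 12 libraries the r of the dendritic sum was 0.78 with *Il1b* and 0.76 with *Relb*. Asxl1Y588XTg replicate 1 was the highest library for the sum and for both genes, and r without it was not computed. Neutrophil markers had r = −0.30 with *Il1b* and 0.50 with *Rel*. Monocyte and macrophage markers had r = 0.41 with *Il1b*, 0.48 with *Relb*, and 0.80 with *Rel*. The part of these cells or genes in the members' levels was not tested.

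Among 9884 genes with a mean of at least 100 normalized counts, those whose pattern over 12 libraries was most like the mean of the members were *Rabggta* (r = 0.93), *Chst14* (0.89), *Ier5* (0.89), *Appl2* (0.88), and *Plk2* (0.87). Most like *Il1b* were *Clec4d* (r = 0.86) and *Clec7a* (0.82), which encode C-type lectin receptors of myeloid cells, and the chemokine gene *Ccl6* (0.82). Most like *Nfkb1* were *Irak4* (r = 0.93), whose product is the kinase that carries IL-1 and Toll-like receptor signals toward NF-κB, *Il4ra* (0.89), an interleukin receptor gene, and *Mvb12a* (0.86).

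Other genes of the pathway were examined by list, with the same call rule. Of 18 tested upstream receptors and adaptors, 4 IKK subunits and NIK, 5 other NF-κB subunit and IκB genes, and 8 negative regulators, none was called in any of the 8 comparisons. Of 20 tested inflammatory target genes outside the set, 1 was called: *Ier3*, an immediate-early gene that also protects from TNF-induced death, fell by 0.61 on the log2 scale (SE 0.12, edgeR adjusted p = 0.0306) in Asxl1Y588XTg Kdm6bΔ/+ against Asxl1Y588XTg, from a mean of 847 to 548. This call was kept in 1 of 6 fits without 1 library, with edgeR adjusted p-values from 0.0232 to 0.102. In that comparison 15 of the 20 were below 0 (50.8% of all genes), with a median of −0.31, and for the deletion over both backgrounds 16 of 20 (53.9% of all genes), with a median of −0.25 and 6 at an unadjusted p-value under 0.05 (9.81% of all genes).

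**Figure D4:**
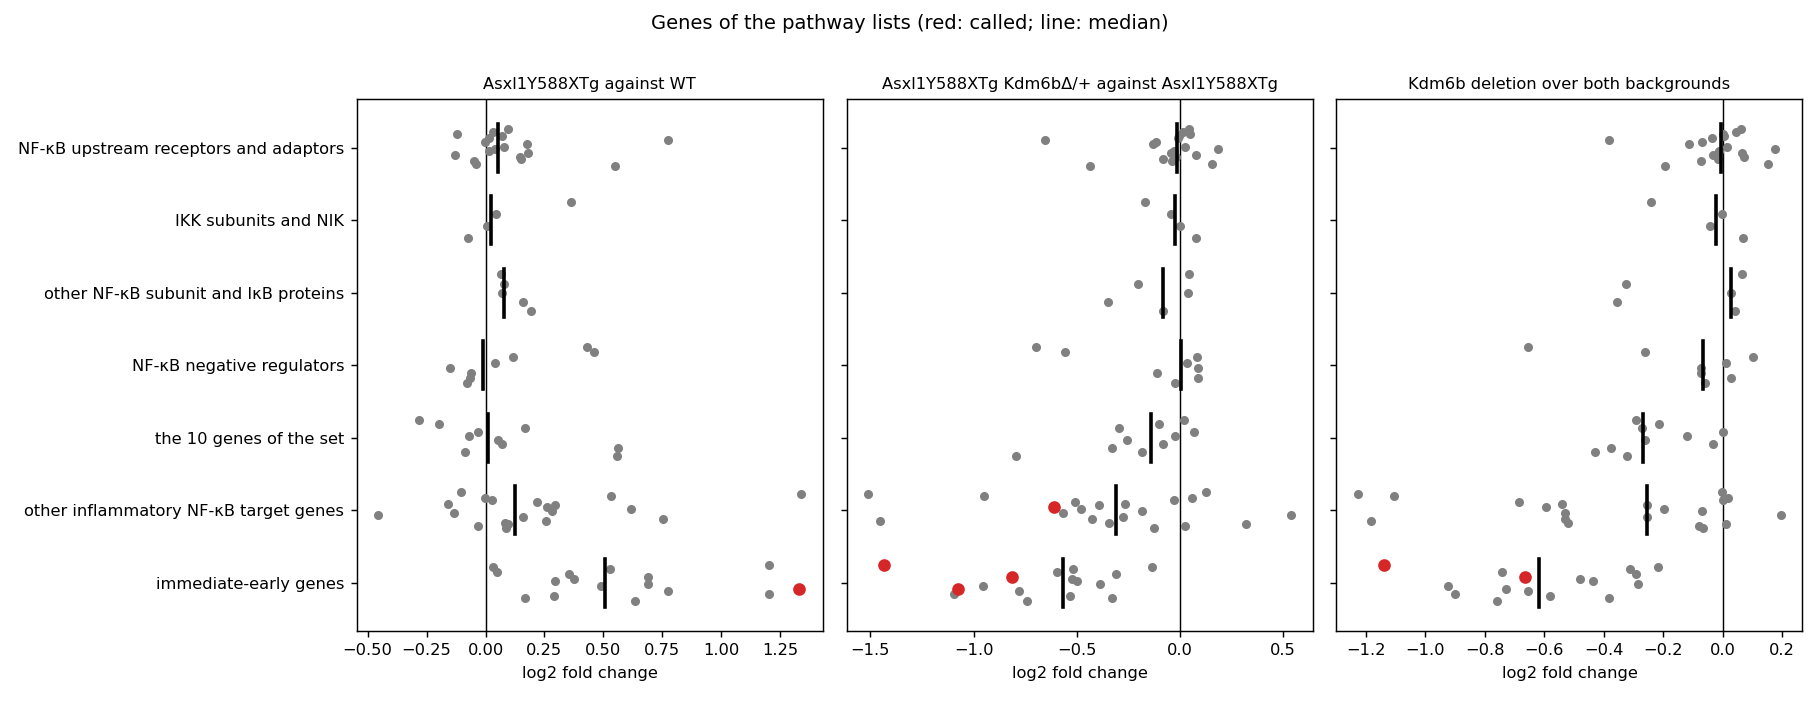
Log2 fold change of each tested gene of 7 lists (points) in 3 comparisons, with called genes in red and the median as a vertical line. Receptors, kinases, and regulators center near 0, whereas all 16 immediate-early genes lie above 0 with the transgene and below 0 with the deletion. Horizontal scales differ between panels.

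Most of the called pathway genes were immediate-early genes. *Egr3*, a zinc finger factor, rose by 1.33 (SE 0.28, edgeR adjusted p = 0.0472) in Asxl1Y588XTg against WT, the 1 of 16 called there (1.61% of all genes). In Asxl1Y588XTg Kdm6bΔ/+ against Asxl1Y588XTg, 3 of 16 were called (1.74% of all genes): *Junb*, an AP-1 subunit, fell by 0.82 (SE 0.08, edgeR adjusted p = 0.00183), *Egr3* fell by 1.08 (SE 0.22), and *Nr4a1*, an orphan nuclear receptor, fell by 1.44 (SE 0.20). For the deletion over both backgrounds all 16 were below 0 (53.9% of all genes) with a median of −0.62, and *Junb* (−0.66) and *Nr4a1* (−1.14) were called (0.348% of all genes). For the transgene over both *Kdm6b* genotypes *Egr3* (0.95) and *Nr4a1* (0.89) were called (1.92% of all genes). Of these 9 calls, the *Ier3* call included, 8 were lost in at least 1 fit without a single library. The other was *Junb* in Asxl1Y588XTg Kdm6bΔ/+ against Asxl1Y588XTg, with edgeR adjusted p-values from 0.00180 to 0.0202 over the 6 fits, and this call was lost with a term for Y-linked transcripts (−0.85, edgeR adjusted p = 0.0675). *Egr3* lost its call there in all 6 (edgeR adjusted p from 0.0507 to 0.155) and in 5 of 6 for Asxl1Y588XTg against WT (0.0390 to 0.217). *Nr4a1* lost its call in 3 of 6 fits there, in 10 of 12 for the deletion over both backgrounds, and in 9 of 12 for the transgene over both *Kdm6b* genotypes.

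In the remaining comparisons no pathway gene was called, and the 2 with the smallest p-values are given. In Kdm6bΔ/+ against WT these were *Nlrp3*, the inflammasome sensor whose activity leads to IL-1β release, at −0.80 (SE 0.17, edgeR adjusted p = 0.271), and *Btg2* at −0.42 (SE 0.12). *Nlrp3* measured 167 to 188 in Kdm6bΔ/+ and 283 to 357 in WT, without overlap, as for 4.80% of all genes in this direction. Since *Nlrp3* was named for its small p-value, this gap is no separate evidence. In Asxl1Y588XTg Kdm6bΔ/+ against WT they were the chemokine gene *Ccl5* at −1.20 (SE 0.30) and *Nlrp3* at −0.43 (SE 0.16). In Asxl1Y588XTg Kdm6bΔ/+ against Kdm6bΔ/+ they were *Junb* at 0.35 (SE 0.09) and *Nr4a1* at 0.55 (SE 0.19), and for the interaction *Tnip2*, a partner of A20, at −0.64 (SE 0.22) and *Klf4* at −0.45 (SE 0.19).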

How the data were processed

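The authors trimmed reads, aligned them to mm10 with STAR, and counted them on genes with HTSeq. They deposited raw counts without normalization. Per the labels an NEB Ultra kit and NextSeq were used, whereas the study's methods name a KAPA stranded kit and HiSeq. The gene annotation and strand setting are not given in the sources used here. Columns were matched to samples by name.

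Tests used R 4.3.3, edgeR 4.0.16, and DESeq2 1.42.0. Genes were filtered with filterByExpr (15825 kept, 22587 without any count) and scaled by TMM. Pairwise comparisons were fitted by the robust quasi-likelihood test to 6 libraries, and the interaction and the effects over both backgrounds to 12. P-values were adjusted over all genes. Standard errors were derived from the F statistic. Normalized counts are counts per effective library size times the mean library size. Exon lengths and positions came from GENCODE vM21 (mm10), and promoters from RefSeq (GRCm38.p6). Correlations used log2 CPM with a prior count of 2, except those with summed marker levels, which used log2 normalized counts. The steps were tested on simulated counts.

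Members and lists were chosen with earlier results of these data known. Named genes were the 10 members, *Kdm6b*, up to 6 called pathway genes per comparison or otherwise the 2 with the smallest p-values, and the 5, 3, and 3 genes most like the members' mean, *Il1b*, and *Nfkb1*. Same-numbered libraries were no more alike than others by the median r of their deviations from the genotype means (−0.04 against 0.01). The main fits therefore did not pair libraries by replicate number. Replicates differed by more than counting noise, with a chi-square per gene of 7.40 or more where noise gives about 1. Each library came from another mouse, so p-values measure the spread between mice. Alternatives were RLE scaling, no filter, a mean count of at least 50, DESeq2, all genotypes in 1 fit, the replicate block, single libraries left out, and a term for Y-linked transcripts.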

Additional observations from a re-analysis of the deposited data

How the results depend on the processing

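The count of members called remained 0 in 120 of 123 alternative fits. The 3 exceptions were all without the low-count filter: 1 member in Asxl1Y588XTg Kdm6bΔ/+ against Asxl1Y588XTg (*Bcl3* −0.79, edgeR adjusted p = 1.89e-04), 2 in the interaction (*Bcl3* −0.97, adjusted p = 0.0147, and *Tnfaip3* 0.60, adjusted p = 0.00806), and 1 for the transgene over both *Kdm6b* genotypes (*Il1b* 0.62, adjusted p = 4.31e-08). The fold changes hardly differed from those with the filter, while the standard error of *Il1b* was 0.10 against 0.37. The cause was not tested. Leaving out single libraries gave a count of 0 in all comparisons. With the replicate number as a block, the count was also 0 in every comparison. Same-numbered libraries had a median r of −0.04 between their deviations from the genotype means (18 pairs). Among the members, however, replicate 1 was often the highest library of its genotype. This held for 7 of 10 members in WT, 5 in Kdm6bΔ/+, 6 in Asxl1Y588XTg, and 5 in Asxl1Y588XTg Kdm6bΔ/+. What the replicate numbers stand for is not given in the sources used here, and the reason for this pattern was not tested. Of the 9 calls of other pathway genes, 6 were not made with the replicate block and 8, *Junb* included, not with the term for Y-linked transcripts. Without both WT replicate 1 and Asxl1Y588XTg replicate 1, none of the 5 that were refitted was called. With 3 mice per group, the 95% intervals of *Il1b*, *Cxcl2*, and *Tnfaip3* were wide and crossed 0 in all 8 comparisons with the filter.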
